A study of Rattus norvegicus with 24 samples.

Results

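Classical estrogen target genes are genes whose transcription follows estradiol in reproductive tissues, pituitary or breast, and 9 of the 6455 genes with a probe of a single symbol were followed here in the rat mesenteric artery. They were Gja1, S100g, Sfrp4, Tgfa, Gal, Areg, Oxtr, Pdzk1 and Wnt4. Every probe annotated with one of these symbols and no other was taken, which gave 10 probes of 10399 on the array, Gja1 having 2 and every other gene 1. None of the 10 was lost to the filter, which asked for values from at least 3 rats in every group.

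All animals were female Sprague Dawley rats without ovaries, the main source of their sex steroids. Ovariectomy was done at 3 weeks of age, and after 2 weeks of recovery each rat received an intraperitoneal dose daily for 4 days and was 5.5 weeks old at collection. The groups were estradiol benzoate, an injectable estradiol ester (0.15 mg per kg daily), testosterone, which tissues can in part turn into estradiol (1 mg per kg daily), and vehicle, sesame oil, with 4 rats each. Mesenteric arteries, which supply the gut, were freed of fat, veins and connective tissue, and the labelled cRNA of each rat was read on 2 CodeLink oligonucleotide arrays with a single dye. The whole mesenteric artery was homogenised, so that fewer cells of a type and less RNA per cell cannot be told apart. Animals are named by the number in their label.

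Estradiol acts mainly through the nuclear receptors encoded by Esr1 and Esr2, which bind estrogen response elements in DNA or act through other factors such as AP-1, the Fos and Jun dimer. The genes followed here have distinct roles. Tgfa and Areg encode ligands of the epidermal growth factor receptor, Gal the neuropeptide galanin, Oxtr the oxytocin receptor, Wnt4 a Wnt ligand and Sfrp4 a secreted protein that binds Wnt ligands. Gja1 encodes a connexin of the gap junctions that couple vascular cells, S100g a small calcium-binding protein of intestine and uterus, and Pdzk1 a scaffold that holds membrane transporters and the HDL receptor Scarb1 in place.

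Promoters of 7 of the 9 genes were in the RefSeq table of the GRCr8 assembly, each as 300 bases around the annotated start. S100g and Sfrp4 were not matched. The following 250 bases before the start, written 5′ to 3′, belong to the genes with a matched promoter for which the animals of at least 1 hormone group did not overlap the vehicle animals on a probe. They lie at chr20:36302314-36302563 (plus strand) for Gja1, chr4:120175469-120175718 (plus strand) for Tgfa and chr1:210084573-210084822 (minus strand) for Gal. Capitals mark matches to the motifs described below.
Gja1: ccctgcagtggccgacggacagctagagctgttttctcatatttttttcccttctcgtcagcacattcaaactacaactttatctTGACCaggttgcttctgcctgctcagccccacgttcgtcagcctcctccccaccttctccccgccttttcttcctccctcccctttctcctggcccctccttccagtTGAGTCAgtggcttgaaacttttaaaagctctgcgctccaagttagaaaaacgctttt
Tgfa: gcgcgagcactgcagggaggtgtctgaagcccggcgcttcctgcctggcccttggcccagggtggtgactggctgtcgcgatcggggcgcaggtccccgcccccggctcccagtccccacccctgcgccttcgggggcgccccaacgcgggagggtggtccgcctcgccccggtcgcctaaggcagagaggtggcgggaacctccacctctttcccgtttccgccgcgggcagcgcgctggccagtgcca
Gal: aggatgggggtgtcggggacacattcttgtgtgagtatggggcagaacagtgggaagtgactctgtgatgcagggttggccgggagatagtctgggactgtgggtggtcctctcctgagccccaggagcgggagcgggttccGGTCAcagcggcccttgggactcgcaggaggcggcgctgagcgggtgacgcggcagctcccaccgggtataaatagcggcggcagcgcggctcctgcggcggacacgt

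Both strands of the 300-base windows were searched for 4 motifs, and a match describes letters, not binding. The palindromic estrogen response element, which is GGTCA followed after any 3 bases by its reverse complement TGACC, was found in 0 of the 7 promoters and in 0.0269% of all 33469 promoters of this length. A single arm of it, GGTCA, was found in 4 of the 7 and in 40.5% of all promoters. Its matches began at -165 in Gja1, at -108 in Gal, at -72 in Pdzk1 and at -241 and -27 in Oxtr, counted from the annotated start. The AP-1 motif TGANTCA was found in 1 of the 7, at -58 in Gja1 as TGAGTCA, and in 7.33% of all promoters. The cAMP response element TGACGTCA was found in 1 of the 7, at -91 in Areg, and in 1.83% of all promoters. GGTCA is part of the palindrome, and the other motifs do not contain each other. The Tgfa promoter printed above held none of these letters.

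Most of these genes gave little signal in the artery. Values are log2 of the deposited scaled spot intensity, of which every array had a median just below 1, averaged over the 2 arrays of a rat. A probe was counted as dim where its mean lay in the lowest 20% of probes (log2 -2.82 or less) or where any array had a blank or a value at or below 0. By this rule 7 of the 10 probes were dim, namely those of S100g, Tgfa, Gal, Areg, Oxtr, Pdzk1 and Wnt4. The count was 6 or 7 with the level set at -4.54 or -1.35. Brightness also depends on the probe itself, so these values rank probes, not transcripts.

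The brighter Gja1 probe (15617) had a mean of 3.84 and stood above 96.6% of probes, the other Gja1 probe (11533) had a mean of 0.88 and stood above 65.6%, and Sfrp4 had a mean of -0.75 and stood above 40.9%. These 3 had a value above 0 on all 24 arrays. Among the dim probes, Tgfa (mean -3.61), Gal (-4.18) and Pdzk1 (-4.29) stood above 11.0% to 14.4% of probes. Wnt4 (-5.28), Areg (-6.03), Oxtr (-6.06) and S100g (-6.22) stood above 3.81% to 7.78%. Values at or below 0 occurred on 2 arrays for Areg and on 1 array each for S100g and Wnt4, and a blank on 1 array each for Tgfa and Pdzk1. Gal and Oxtr were dim by level alone.

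The duplicate arrays show how much of the spread between rats the measurement itself can give. For Sfrp4 the SD between the rats of a group was 0.54, against 0.06 expected for the mean of 2 arrays from the duplicates. For the bright Gja1 probe these were 0.19 and 0.05, and for the other Gja1 probe 0.34 and 0.11. Rats of a group thus differed by more than their duplicate arrays for these 3 probes. For S100g the same values were 0.72 and 0.60, and for Areg 0.43 and 0.36. For Oxtr the spread between rats, 0.46, was below the 0.80 expected from its duplicates. Most of that 0.80 came from 1 pair of arrays, those of vehicle animal 8, which read 0.0072 and 0.2001. The plot of both spreads shows this order for all 10 probes.

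**Figure D1:**
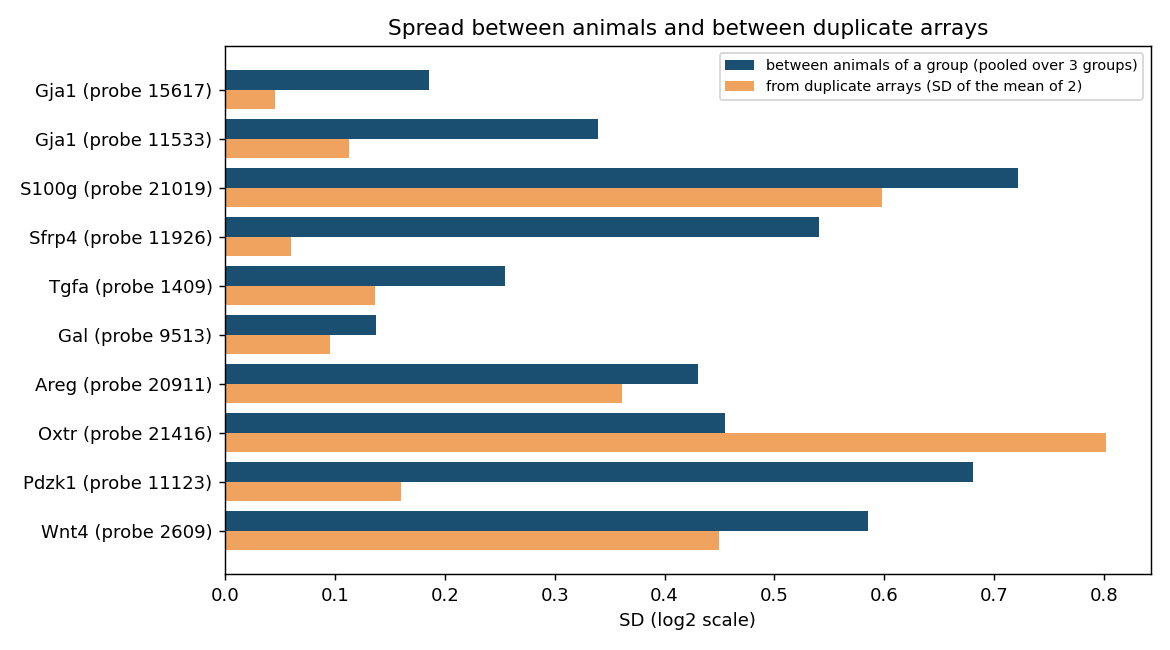
Spread of each probe on the log2 scale. Dark bars give the SD between animals of a group, pooled over the 3 groups, and light bars the SD of a mean of 2 arrays, from the duplicates. The dark bar is several times the light one for Gja1, Sfrp4 and Pdzk1. The light bar of Oxtr (0.80) exceeds its dark bar (0.46), mostly through the arrays of vehicle animal 8.

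None of the 10 probes passed an adjusted p under 0.05 in any of the 3 comparisons (limma, 12 animals, Benjamini-Hochberg over 10228 probes). In estradiol benzoate minus vehicle the array as a whole held 0% of called probes, in testosterone minus vehicle 0.0489% (5 probes), and in estradiol benzoate minus testosterone 0.0293% (3 probes). The smallest adjusted p of the 10 probes was 0.125 (Tgfa), 0.109 (Gal) and 0.679 (S100g) in these comparisons. For any difference among the 3 groups, the smallest adjusted p by the F test was 0.168 (Gal) and the next 0.174 (Tgfa). The values below are therefore differences that did not pass the test, and the test placed no group of any gene apart from its neighbours in the order of levels. Both hormone groups are set against the same 4 vehicle rats.

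Gja1 had its highest levels after estradiol benzoate on both probes. On the bright probe, estradiol benzoate animals 2, 3, 5 and 8 had 3.93, 4.27, 3.90 and 4.27, testosterone animals 2, 4, 6 and 8 had 3.41, 3.64, 3.71 and 3.86, and vehicle animals 3, 4, 5 and 8 had 4.00, 3.67, 3.82 and 3.66. Every estradiol benzoate rat lay above every testosterone rat, whereas vehicle animal 3 lay within the estradiol benzoate range. The log2 difference was 0.31 (SE 0.13, adjusted p 0.338) for estradiol benzoate minus vehicle, -0.13 (adjusted p 0.672) for testosterone minus vehicle and 0.44 (SE 0.13, adjusted p 0.694) for estradiol benzoate minus testosterone.

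On the less bright Gja1 probe, the estradiol benzoate rats had 1.27, 1.84, 0.98 and 1.45 in the same order of animals, the testosterone rats 0.97, 0.49, 0.96 and 0.43, and the vehicle rats 0.09, 0.71, 0.47 and 0.94. Every estradiol benzoate rat lay above all rats of the other groups, the nearest by 0.01 (testosterone) and 0.05 (vehicle). The difference of estradiol benzoate minus vehicle was 0.84 (SE 0.22, 95% interval 0.35 to 1.32, adjusted p 0.191), that is 1.79-fold, and that of testosterone minus vehicle was 0.16 (adjusted p 0.766). Estradiol benzoate minus testosterone was 0.67 (SE 0.22, adjusted p 0.857). The probes thus gave the same sign and unequal sizes for estradiol benzoate, and opposite signs for testosterone minus vehicle. The gap between them within a rat, bright minus other, which includes the probes' own efficiency, was 2.43 to 2.92 in estradiol benzoate rats, 2.43 to 3.43 in testosterone rats and 2.72 to 3.91 in vehicle rats.

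Sfrp4 had the lowest levels after estradiol benzoate. The estradiol benzoate rats had -1.41, -2.06, -0.56 and -2.09, the testosterone rats -1.07, 0.22, -0.53 and -0.28, and the vehicle rats -0.48, -0.46, -0.34 and 0.08. All estradiol benzoate rats lay below all vehicle rats, animal 5 by a gap of only 0.07, and they overlapped the testosterone rats through testosterone animal 2 and estradiol benzoate animal 5. The difference of estradiol benzoate minus vehicle was -1.23 (SE 0.34, 95% interval -1.98 to -0.48, adjusted p 0.203), a ratio of 0.426. Testosterone minus vehicle was -0.12 (SE 0.34, adjusted p 0.897), and estradiol benzoate minus testosterone was -1.12 (SE 0.34, adjusted p 0.729).

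Wnt4, the Wnt ligand of the list, was dim in every group. Its levels were, after estradiol benzoate, -5.44, -5.94, -6.09 and -5.07, after testosterone -5.08, -5.54, -5.25 and -5.38, and after vehicle -5.03, -4.70, -3.88 and -6.00. Vehicle animals 3, 4 and 5 lay above every rat of both hormone groups, animal 5 being the highest of all 12. The groups overlapped through vehicle animal 8. Estradiol benzoate minus vehicle was -0.73 (SE 0.37, adjusted p 0.403). With a rat left out it was -1.10 to -0.39, the latter without vehicle animal 5. For testosterone minus vehicle the difference was -0.41 (adjusted p 0.640), and -0.77 to -0.067 with a rat left out, the latter again without vehicle animal 5.

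Tgfa had low signal with an SD between duplicate arrays of 0.19, and higher mean levels in both hormone groups than in vehicle. The estradiol benzoate rats had -3.53, -3.09, -3.14 and -3.28, the testosterone rats -3.12, -3.73, -3.49 and -3.56, and the vehicle rats -4.30, -3.66, -4.25 and -4.21, the last of these from 1 array. All estradiol benzoate rats lay above all vehicle rats, and testosterone animal 4 overlapped vehicle animal 4. Estradiol benzoate minus vehicle was 0.85 (SE 0.17, 95% interval 0.47 to 1.22, adjusted p 0.125), that is 1.80-fold, and 0.254% of all tested probes had as small a p. Testosterone minus vehicle was 0.63 (SE 0.17, adjusted p 0.210), and estradiol benzoate minus testosterone was 0.21 (SE 0.17, 95% interval -0.16 to 0.59, adjusted p 0.999). Spot intensities ran from 0.0752 to 0.122 on the estradiol benzoate arrays and from 0.0397 to 0.0802 on the vehicle arrays.

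Areg, the other growth factor ligand, lay close to the limit of the arrays. After estradiol benzoate the rats had -6.17, -5.64, -5.52 and -5.64, after testosterone -6.27, -6.19, -6.09 and -6.81, and after vehicle -5.40, -6.84, -5.83 and -5.93. All groups overlapped, and 2 of the 8 estradiol benzoate arrays were at or below 0. Estradiol benzoate minus vehicle was 0.26 (SE 0.28, adjusted p 0.695) and turned to -0.027 when low values were kept at a floor or a pseudocount was added. The value for testosterone minus vehicle was -0.34 (adjusted p 0.593).

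Gal, for which estradiol is a known inducer in the rat pituitary, had narrow groups despite its low signal. Its levels were -4.29, -3.96, -4.16 and -4.13 in estradiol benzoate rats, -4.10, -3.98, -3.77 and -3.84 in testosterone rats and -4.43, -4.55, -4.62 and -4.32 in vehicle rats. Both hormone groups lay wholly above vehicle, estradiol benzoate by a gap of 0.03 and testosterone by a gap of 0.22. Testosterone minus vehicle was 0.56 (SE 0.11, 95% interval 0.33 to 0.79, adjusted p 0.109), that is 1.47-fold, and estradiol benzoate minus vehicle was 0.34 (SE 0.11, 95% interval 0.11 to 0.57, adjusted p 0.247), that is 1.27-fold. Estradiol benzoate minus testosterone was -0.22 (SE 0.11, 95% interval -0.45 to 0.02, adjusted p 0.999). A pseudocount of 0.1, which by construction shrinks differences of dim probes, gave 0.20 for Gal in testosterone minus vehicle and 0.11 in estradiol benzoate minus vehicle. With it Tgfa had 0.37 in estradiol benzoate minus vehicle and 0.26 in testosterone minus vehicle.

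Oxtr held a single bright spot among near-background values. Estradiol benzoate rats had -6.09, -6.24, -5.99 and -6.42, the testosterone rats -6.40, -6.10, -6.27 and -6.98, and the vehicle rats -5.76, -6.31, -5.48 and -4.72. Vehicle animals 3, 5 and 8 lay above every rat of both hormone groups, and the groups overlapped through vehicle animal 4. Vehicle animal 8 was the highest. Its arrays read 0.0072 and 0.2001, and no other of the 24 arrays exceeded 0.0254. Estradiol benzoate minus vehicle was -0.62 (SE 0.29, adjusted p 0.380). With a rat left out it was -0.86 to -0.33, the latter without vehicle animal 8. Testosterone minus vehicle was -0.87 (SE 0.29, adjusted p 0.271), and -1.12 to -0.59 with a rat left out, the latter again without vehicle animal 8.

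S100g, which estradiol is known to induce in rat uterus, was the dimmest of the 10 probes. The estradiol benzoate rats had -5.71, -4.47, -6.47 and -4.48, the testosterone rats -6.93, -6.15, -7.46 and -6.80, and the vehicle rats -6.39, -7.36, -6.07 and -6.41. Estradiol benzoate animals 3 and 8 stood above all others, and on both arrays of each (0.0433 and 0.0468 in animal 3, 0.0393 and 0.0513 in animal 8) the spot was brighter than on any array of the other groups. Animal 5 lay within the vehicle and testosterone ranges. Estradiol benzoate minus vehicle was 1.28 (SE 0.46, 95% interval 0.28 to 2.27, adjusted p 0.294). This difference was 0.81 on the first arrays alone, 2.01 on the second arrays alone, 0.46 with low values kept at a floor at the 5th percentile of each array and 0.23 with a pseudocount of 0.1. In testosterone minus vehicle it was -0.28 (adjusted p 0.814), and estradiol benzoate minus testosterone was 1.55 (SE 0.46, adjusted p 0.679), or 0.65 with that floor and 0.23 with that pseudocount.

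Pdzk1 was brightest in a single vehicle rat. Levels in estradiol benzoate rats were -4.17, -4.44, -4.62 and -4.53, in testosterone rats -4.35, -4.83, -4.83 and -5.39, and in vehicle rats -3.79, -4.03, -1.99 and -4.45. Vehicle animal 5 was far above the rest on both arrays (0.227 and 0.279, against at most 0.0797 elsewhere). Vehicle animals 3 and 4 also lay above every rat of both hormone groups, and only vehicle animal 8 lay within their ranges. Estradiol benzoate minus vehicle was -0.88 (SE 0.43, adjusted p 0.391). With a rat left out it was -1.17 to -0.35, the latter without vehicle animal 5. Testosterone minus vehicle was -1.29 (SE 0.43, adjusted p 0.271), and -1.58 to -0.76 with a rat left out, the latter again without vehicle animal 5.

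**Figure D2:**
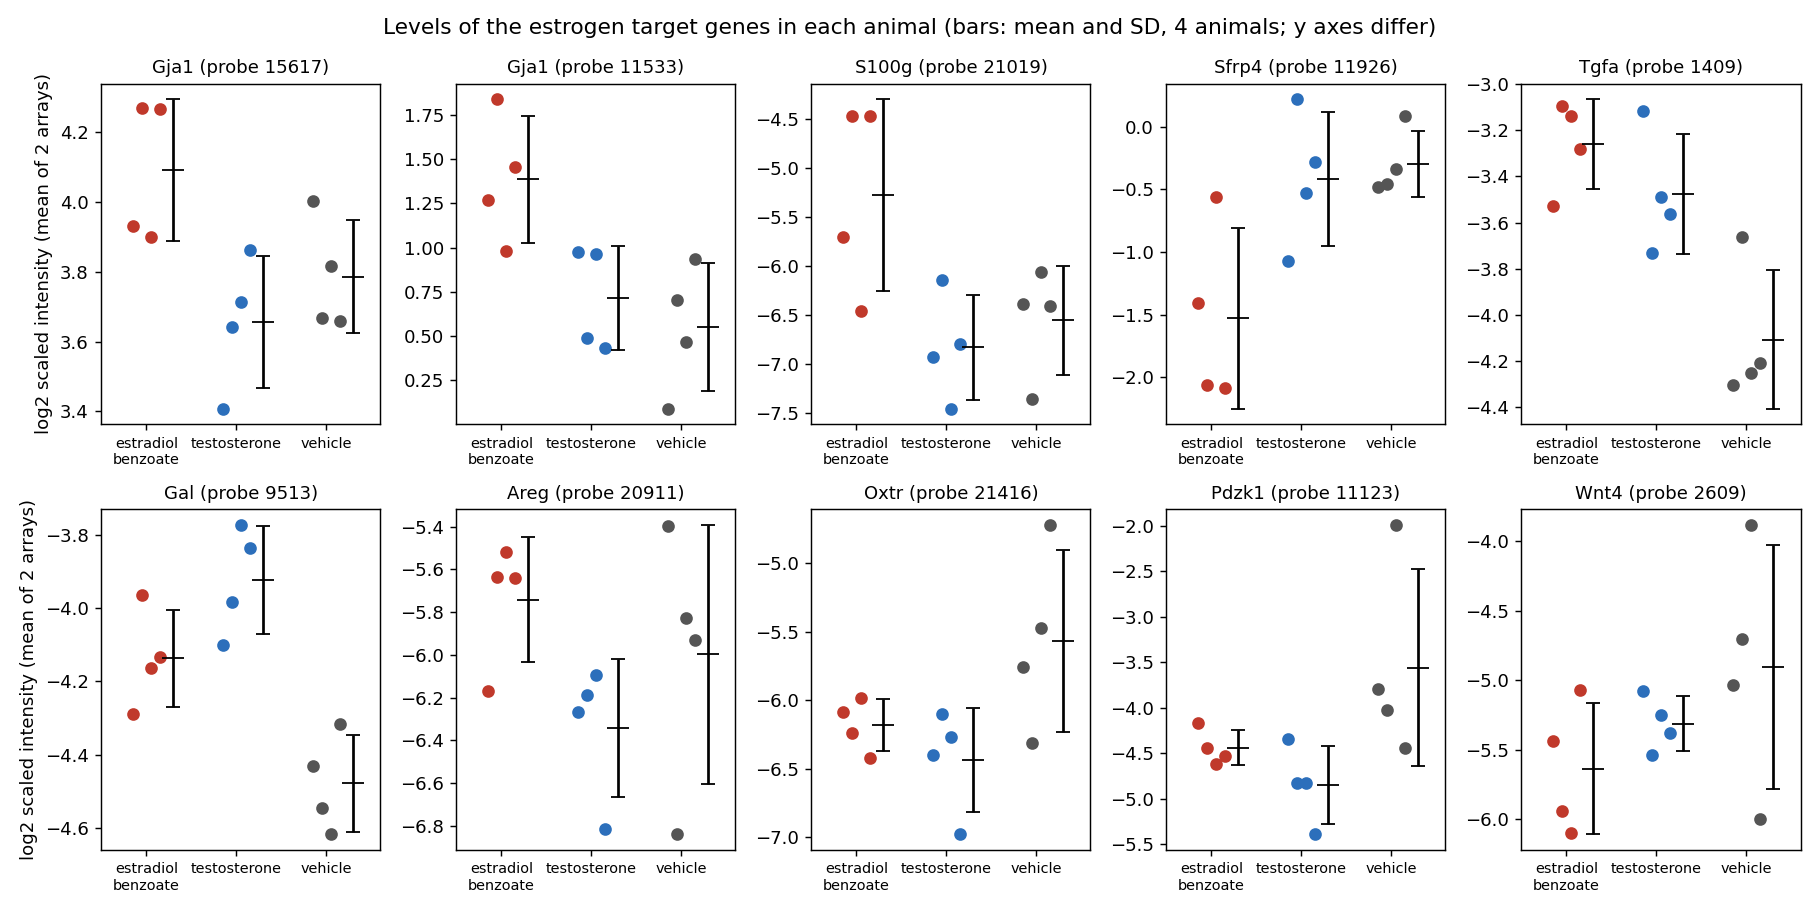
Level of each probe in every animal, as log2 scaled intensity (mean of 2 arrays), by group from left to right estradiol benzoate, testosterone and vehicle, with the mean and SD of 4 animals beside the points and a y axis of its own for each probe. The estradiol benzoate points lie wholly above vehicle for Gja1 (probe 11533), Tgfa and Gal and wholly below it for Sfrp4, and vehicle animals stand alone at the top for Oxtr (-4.72) and Pdzk1 (-1.99).

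Counted together, 6 of the 10 probes had an unadjusted p under 0.05 in estradiol benzoate minus vehicle, 5 with a higher and 1 with a lower level, where all tested probes had 13.5% (6.77% higher and 6.69% lower). In 4 of the 10 the groups did not overlap, 3 higher and 1 lower, against 7.82% of all probes (3.53% higher and 4.29% lower). In testosterone minus vehicle 4 probes had such a p, 2 higher (Tgfa and Gal) and 2 lower (Oxtr and Pdzk1), against 14.0% of all probes (6.62% higher and 7.43% lower). Only Gal did not overlap, with a higher level, where 5.59% of all probes did not overlap (2.45% higher and 3.14% lower), so that this count lay near the background. The members were chosen with earlier results of these data known, so counts over them, here and below, describe and do not test the list. Gja1 enters with 2 probes. By its bright probe alone, 4 of 9 genes were higher and 1 lower at that p in estradiol benzoate minus vehicle.

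Among the 7 dim probes, 3 had an unadjusted p under 0.05 for estradiol benzoate minus vehicle and 4 for testosterone minus vehicle, against 16.1% and 18.5% of all probes in the lowest 20%. A log2 difference of at least 0.5 was seen in 5 and 4 of the 7, and such differences made up 25.7% and 25.1% of all those dim probes. Differences of this size are thus frequent among dim probes in general. The median difference of the 10 probes was 0.28 for estradiol benzoate minus vehicle and -0.20 for testosterone minus vehicle, beside -0.01 over all probes in each.

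**Figure D3:**
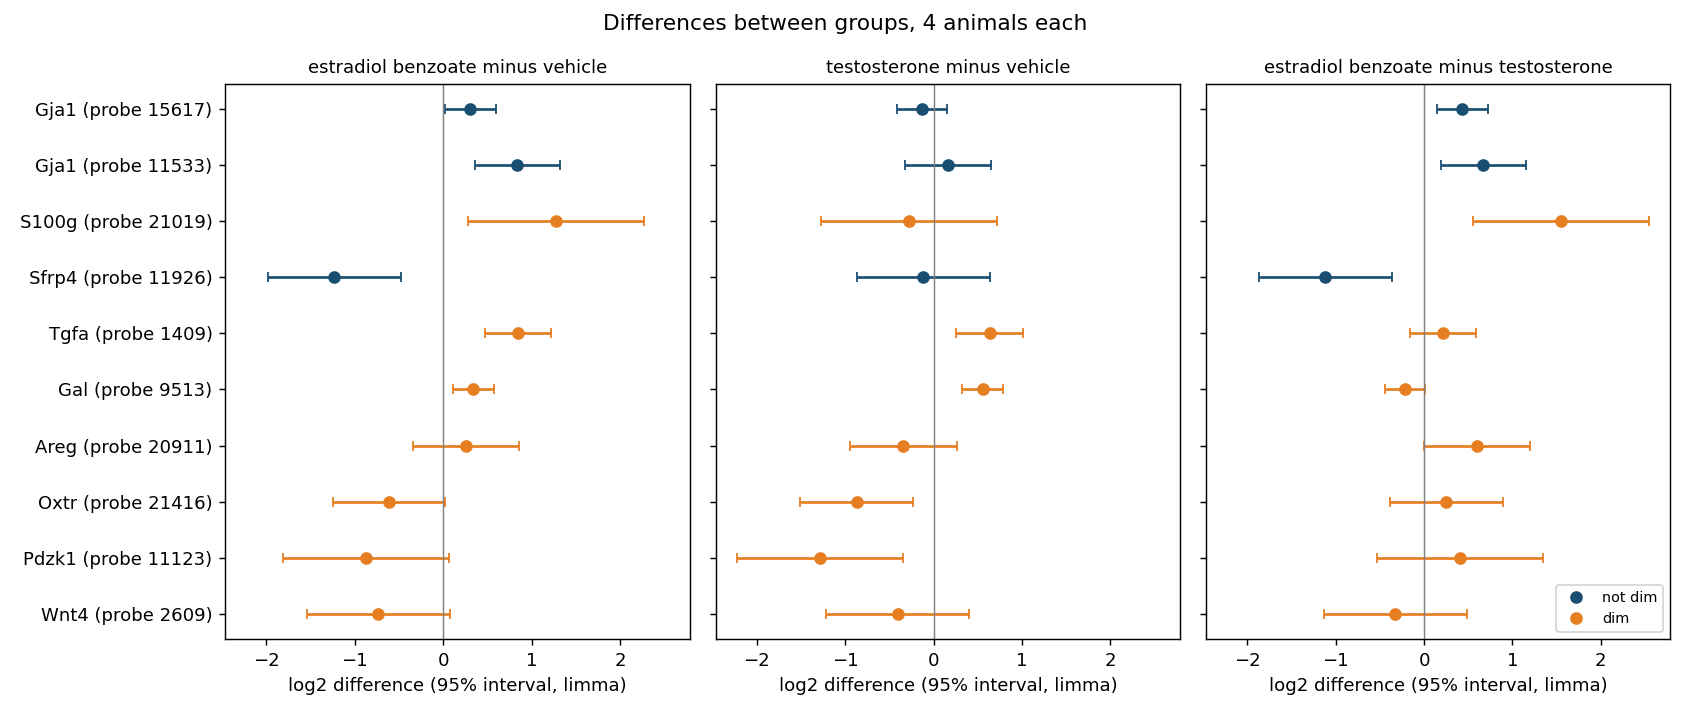
Log2 difference of each probe with its 95% interval from the limma fit, in panels for estradiol benzoate minus vehicle, testosterone minus vehicle and estradiol benzoate minus testosterone, with dim and other probes in separate colours. The intervals for Gja1, S100g, Tgfa and Gal lie above 0 and that for Sfrp4 below 0 in the first panel, before any adjustment for the number of probes.

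Estradiol benzoate and testosterone were also set directly against each other. An unadjusted p under 0.05 was found for 4 of 10 probes, 3 higher (both Gja1 probes and S100g) and 1 lower (Sfrp4), against 4.13% of all probes (2.41% higher and 1.71% lower). The 2 Gja1 probes did not overlap, with higher levels after estradiol benzoate, against 3.05% of all probes (1.88% higher and 1.17% lower). Of the 7 dim probes, 1 had such a p, beside 5.42% of all dim probes, and 2 had a difference of at least 0.5, beside 15.8%. The median difference of the 10 probes was 0.33, beside 0.00 over all probes.

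The estradiol benzoate rats differed among themselves. Animals 3 and 8 had the highest Gja1 on both probes, the highest S100g and the lowest Sfrp4 of all 12 rats, whereas animal 5 had the lowest Gja1 and S100g and the highest Sfrp4 of its group. The same rats differed in genes of other tissues. The summed intensity of 6 of 8 listed pancreas genes, all above 0 in every rat, was 0.453, 91.1, 1.44 and 4.40 in estradiol benzoate animals 2, 3, 5 and 8, 0.377 to 2.02 in testosterone rats and 0.409 to 1.08 in vehicle rats. The sums of animals 3 and 8 were thus the highest of the 12 rats. A sum over 2 of 4 listed mesothelium genes was 0.686, 2.18, 0.344 and 0.974 in estradiol benzoate animals 2, 3, 5 and 8. It was 0.379 to 0.612 in testosterone rats and 0.748 to 1.25 in vehicle rats. The part of pancreas and mesothelium in the Gja1, S100g and Sfrp4 values was not tested. Without animal 3, estradiol benzoate minus vehicle was 0.25 and 0.69 for the Gja1 probes, 1.01 for S100g, -1.05 for Sfrp4 and 0.79 for Tgfa.

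Liver genes were highest in vehicle animal 5. The summed intensity of 5 of 7 listed liver genes was 0.360 to 0.635 in estradiol benzoate rats, 0.217 to 0.517 in testosterone rats and 3.49, 2.18, 20.3 and 0.582 in vehicle animals 3, 4, 5 and 8. The rat with the highest sum also had the highest Pdzk1, a gene with high expression in liver and kidney, and the highest Wnt4. A sum over 6 of 8 intestinal epithelium genes was likewise highest there (15.0, against 2.78 to 6.91 in the other 11 rats). Most of that sum came from Fabp1, which reached log2 3.42 among the vehicle rats. Vil1 was instead lower in vehicle (0.55 for estradiol benzoate and 0.94 for testosterone minus vehicle), and Si differed little (-0.002 and -0.05). Of the 6 genes, 1 was higher than in vehicle after estradiol benzoate and 2 after testosterone. The part of these tissues in the Pdzk1 and Wnt4 values was not tested.

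Lymphocyte genes, like Tgfa and Gal, had their lowest values among vehicle rats. The summed intensity of 5 of 8 listed lymphocyte genes was 0.440 to 0.668 in estradiol benzoate rats, 0.432 to 0.550 in testosterone rats and 0.250 to 0.466 in vehicle rats. The mean log2 level of the same 5 genes was -4.10 to -3.71 in estradiol benzoate rats, -4.14 to -3.77 in testosterone rats and -5.07 to -4.22 in vehicle rats, so that by this measure neither hormone group overlapped vehicle. The chemokine receptor gene Ccr7 had 0.93 (adjusted p 0.224) for estradiol benzoate and 1.23 (adjusted p 0.150) for testosterone minus vehicle, with neither group overlapping vehicle. The T cell coreceptor genes Cd8a and Cd8b had 0.96 (adjusted p 0.191) and 0.61 (adjusted p 0.203) for estradiol benzoate minus vehicle, also without overlap. For testosterone minus vehicle they had 0.82 (adjusted p 0.238) and 0.55 (adjusted p 0.243), with overlap. Cd3d and Cd4 overlapped vehicle in both hormone groups. Ccr7, Cd8a and Cd8b were dim by level, above 6.32% to 12.8% of probes. Of all probes, 7.82% did not overlap vehicle after estradiol benzoate and 5.59% after testosterone. The sum over 6 of 8 peripheral nerve genes, given because galanin is a neuropeptide, was 15.3 to 38.0 in estradiol benzoate rats, 20.1 to 32.9 in testosterone rats and 13.7 to 24.4 in vehicle rats. Their mean log2 level was 0.43 to 0.83, 0.53 to 0.88 and 0.34 to 0.63 in the same order of groups, with overlap. All 6 were higher than in vehicle after testosterone (median difference 0.24), and 5 of the 6 after estradiol benzoate (0.09). The part of lymphocytes and nerves in the Tgfa and Gal values was not tested. None of the pancreas, mesothelium, liver and lymphocyte genes counted here was called in any comparison. The artery itself was represented by bright signals of Cnn1, a smooth muscle calponin (log2 mean 5.11), and Pecam1, an endothelial adhesion molecule (4.88). Acta2, Myh11 and Tagln had no probe of a single symbol. Of the listed markers 3 of 7 for smooth muscle and 5 of 6 for endothelium were measured, and none was called. Rgs5, a gene of pericytes and smooth muscle, had -0.49 (SE 0.17, adjusted p 0.282) for estradiol benzoate minus vehicle, with every estradiol benzoate rat below every vehicle rat. The endothelial receptor gene Tek had -0.23 (adjusted p 0.327) for estradiol benzoate and -0.21 (adjusted p 0.349) for testosterone minus vehicle. Kdr, another endothelial receptor gene, had a log2 mean of only -2.38 and a difference of 0.48 (SE 0.34) for estradiol benzoate minus vehicle. Although the arteries were freed of fat and connective tissue, some adipocyte and fibroblast genes were also bright. The log2 mean was 4.89 for Fabp4, 4.64 for Adipoq and 5.62 for Col1a1. The adipocyte genes Lipe (-0.79) and Ucp1 (-1.53) were less bright. None of these was called, and the part of fat and connective tissue in the member values was not tested.

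**Figure D4:**
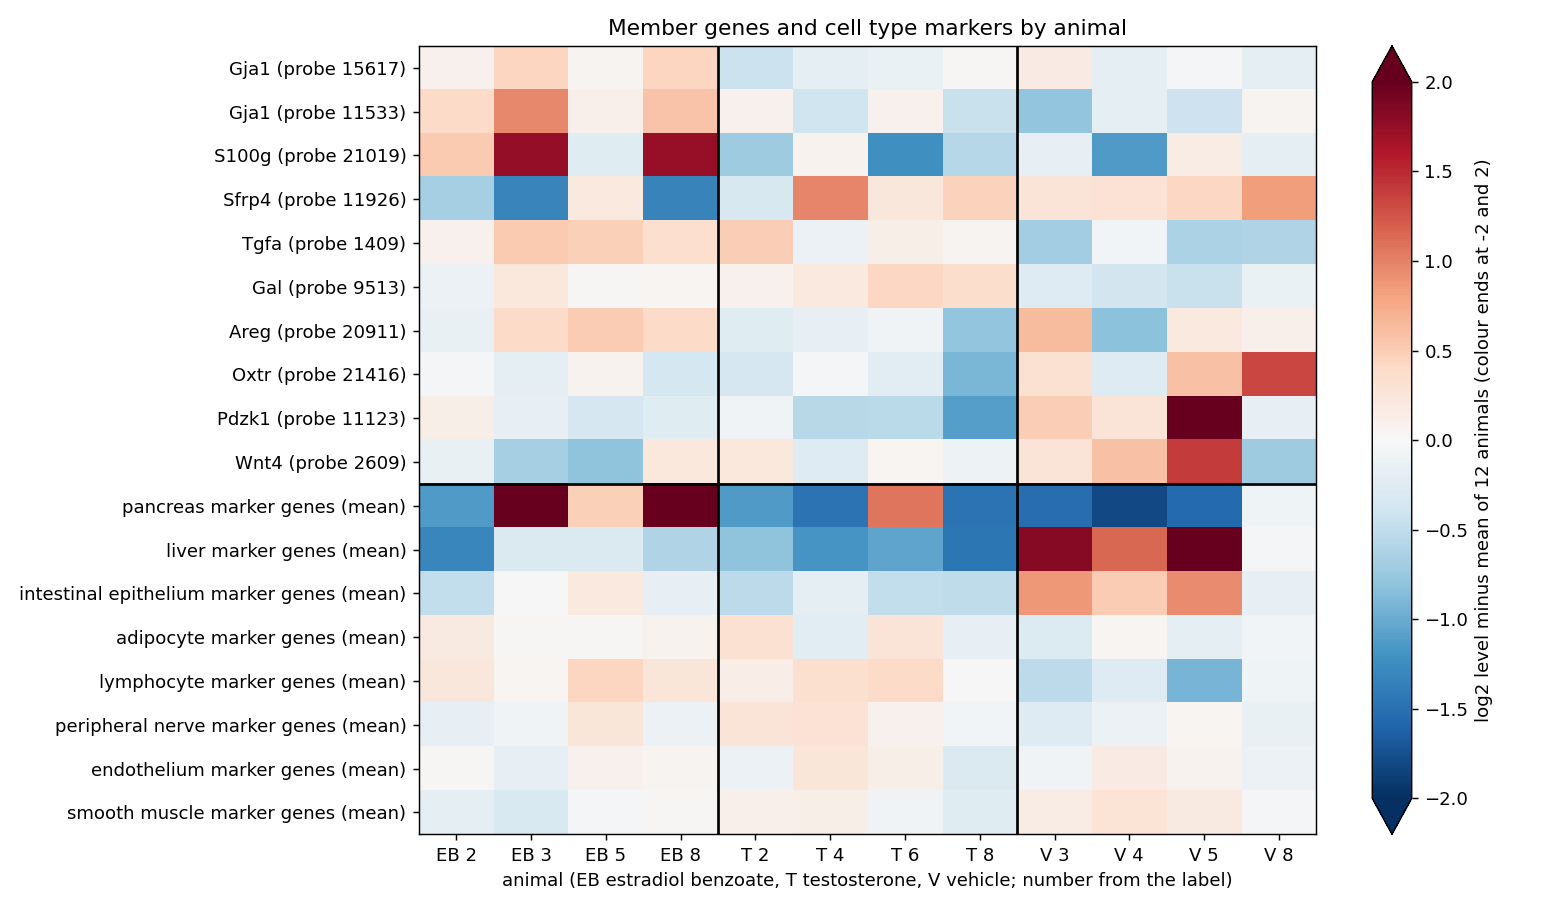
Log2 level minus the mean of the 12 animals for the 10 probes (upper block) and for means of cell type marker genes (lower block), by animal, with estradiol benzoate, testosterone and vehicle from left to right and a colour scale that ends at -2 and 2. Estradiol benzoate animals 3 and 8 share high Gja1 and S100g and low Sfrp4, with high pancreas genes. Vehicle animal 5 combines high Pdzk1 and Wnt4 with high means of the liver and intestinal lists.

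The genes around these members are given from lists of their pathways, in which no gene was called in either hormone comparison with vehicle or between the hormones. Of the steroid receptors and coregulators 8 of 11 were measured. Esr1 had a difference of 0.00 (SE 0.12) for estradiol benzoate minus vehicle and 0.11 for testosterone minus vehicle, and Esr2 had -0.14 and -0.27. The progesterone receptor gene Pgr, itself an estrogen target, had 0.19 (SE 0.26) and -0.51 (SE 0.26) and was dim in all groups. Gper1, a membrane estrogen receptor, had -0.38 (SE 0.14, adjusted p 0.311) for estradiol benzoate minus vehicle. Of 13 measured genes among 22 other estrogen-responsive genes, 1 had an unadjusted p under 0.05 for estradiol benzoate minus vehicle, a share near the 13.5% of all probes. That was Fos, a subunit of AP-1, with means of 3.03 in estradiol benzoate, 2.67 in testosterone and 1.62 in vehicle rats. Its difference was 1.41 (SE 0.36, adjusted p 0.191) for estradiol benzoate minus vehicle and 1.05 (SE 0.36, adjusted p 0.273) for testosterone minus vehicle, with neither hormone group overlapping vehicle. For estradiol benzoate minus testosterone, the chemokine gene Cxcl12 had 0.43 (adjusted p 0.328) and Pgr 0.70 (adjusted p 0.999).

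In the growth factor system of Tgfa and Areg, 9 of 13 genes were measured. Among the receptor genes, estradiol benzoate minus vehicle was 0.10 for Egfr, 0.25 for Erbb4 and 0.79 (SE 0.53, adjusted p 0.503) for Erbb3, and testosterone minus vehicle was -0.26, 0.23 and 0.73 (SE 0.53, adjusted p 0.553). In the Wnt system 10 of 21 genes were measured, and Sfrp4 alone had an unadjusted p under 0.05 in estradiol benzoate minus vehicle, where 13.5% of all probes had one. Its relative Sfrp2 had -0.10 there (SE 0.21), the Wnt antagonist Dkk3 0.28 (SE 0.14) and the signal transducer Ctnnb1 0.13 (SE 0.15).

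Of the connexins and partners, 5 of 7 were measured, and the endothelial connexin genes Gja4 and Gja5 had -0.13 (SE 0.11) and -0.14 (SE 0.13) for estradiol benzoate minus vehicle, beside the positive values of Gja1. Among 9 of 10 measured genes of vitamin D response and calcium transport, the plasma membrane calcium pump gene Atp2b1 had -0.32 (SE 0.13, adjusted p 0.325) for estradiol benzoate and -0.46 (SE 0.13, adjusted p 0.210) for testosterone minus vehicle. The vitamin D receptor gene Vdr had 0.16 (SE 0.10) and 0.12. In the galanin and oxytocin systems 6 of 11 genes were measured, with 0.01 and 0.17 for the galanin receptor gene Galr1, and with 0.11 and -0.31 for the vasopressin receptor gene Avpr1a. Of the partners of Pdzk1, 5 of 9 were measured, and Scarb1 had 0.42 (SE 0.18, adjusted p 0.336) for estradiol benzoate and 0.06 for testosterone minus vehicle.

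For the 3 probes that were not dim, the genes with the most similar course over the 12 rats were sought among 6262 single-symbol probes, as the root mean square difference of log2 values after centring. The bright Gja1 probe was nearest to Arrdc2 (0.14) and Mdfic (0.14), against its own spread of 0.24. The other Gja1 probe was nearest to Gpm6b (0.20) and the hexokinase gene Hk2 (0.24), against 0.47. Sfrp4 was nearest to Cks2 (0.37) and C1qtnf3 (0.38), against 0.73. In estradiol benzoate minus vehicle Gpm6b had 1.00 and C1qtnf3 -0.99, values that the choice by likeness brings with it.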

How the data were processed

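Spot values of 24 CodeLink arrays were analysed, 2 per rat from the same cRNA. The authors deposited scaled linear spot intensity, with array medians of 0.926 to 0.951. The sources used here do not give the scanner software, the background correction or the way of scaling. The 327 values at or below 0 and the blanks (152 to 665 per array) were treated as missing, log2 was taken without a pseudocount, and the 2 arrays of a rat, which correlated at 0.976 to 0.993, were averaged. A group-means model was fitted to 12 rats with limma 3.58.1 in R 4.3.3 (lmFit and eBayes, 9 residual and 2.51 prior degrees of freedom), with two-sided tests and Benjamini-Hochberg adjustment over 10228 probes, those with values from at least 3 rats in every group. Called means an adjusted p under 0.05. The fit was tested on simulated data.

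Probe symbols came from the platform annotation (7294 probes with a single symbol, 88 with several, 3017 with none), and gene IDs matched 7284 of them to RefSeq, with 0 symbols altered. Outside the members the brightest probe stood for a gene with several. The members and the gene lists were chosen with earlier results of these data known. Named were all member probes, up to 4 genes of each other list with the smallest p against vehicle, of which some are described, Esr1, Esr2 and Pgr, and the 2 genes most like each member probe that was not dim. A list of genes of tissues absent from the artery, meant as a gauge of background, had 0 measured genes. Animal numbers shared between groups were checked for pairing. Deviations from group means correlated at -0.12 to 0.30 over 7 pairs of equal number (median 0.04). Over 41 pairs of other number they correlated at -0.28 to 0.24 (median -0.02). These ranges overlap widely, and the rats were not treated as paired. Precision is limited by 4 rats a group and, for dim probes, by signal. Alternatives covered normalization, pseudocount, floor, filters, single arrays, blocks, moderation and each rat left out.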

Additional observations from a re-analysis of the deposited data

Results flagged for a closer look

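Of 30 groups of 4 rats examined, 1 held a sample far from the others, and chance gives about 1 in 20. Tgfa in vehicle animal 4 was -3.66, and the nearest other vehicle rat was at -4.21, a gap of 85.4% of the group's range. It was the only vehicle rat within the range of the testosterone rats. Without it, estradiol benzoate minus vehicle was 1.00 for Tgfa (adjusted p 0.101).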

How the results depend on the processing

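The member probes kept their direction and stayed on the same side of the threshold in 698 of 714 refits under all alternatives. Directions turned for Areg in estradiol benzoate minus vehicle (-0.027 with a pseudocount of 0.1, -0.027 with a floor at the 5th percentile of each array), and for Oxtr in estradiol benzoate minus testosterone (-0.050 with that floor). Leaving out a rat gave -0.023 to 0.46 for Areg in estradiol benzoate minus vehicle, turning without vehicle animal 4, and -0.33 to 0.10 for Sfrp4 in testosterone minus vehicle, turning without vehicle animal 8 or testosterone animal 2. The cause was not tested. A model of all 24 arrays with the animal as a random block (correlation within rats 0.63) called Gja1 probe 11533 (adjusted p 0.0295), Sfrp4 (0.0114) and Tgfa (0.0256) in estradiol benzoate minus vehicle, Gal (0.0220) in testosterone minus vehicle and Sfrp4 (0.0453) in estradiol benzoate minus testosterone, with differences of 0.84, -1.23, 0.84, 0.56 and -1.12. It assumes 1 correlation for all probes, and its degrees of freedom count arrays, not rats. Where duplicates are closer than that correlation, arrays count in part as separate rats and p is too small. This holds for Sfrp4 (SD 0.08 between duplicates, 0.54 between rats) and Gja1 probe 11533 (0.16 and 0.34). For Tgfa these were 0.19 and 0.26, and for Gal 0.13 and 0.14. All probes called in estradiol benzoate minus vehicle numbered 0 (1376 at an unadjusted p under 0.05), and 226 with that random block, 10 without the lowest 20% of probes, 2 with a value on all 24 arrays, 1 on first arrays, 3 with trend and robust moderation and 0 to 2 with a rat left out. In testosterone minus vehicle there were 5, and 151 with the random block, 8 with quantile normalization, 3 with a value on all 24 arrays, 3 on first arrays, 1 from these 2 groups alone, 29 without estradiol benzoate animal 3 and vehicle animal 5 (an alternative added after the data were seen) and 0 to 45 with a rat left out. In estradiol benzoate minus testosterone there were 3, and 40 with the random block, 1 on first arrays, 0 on second arrays, 0 with quantile normalization, 0 from these 2 groups alone, 0 without both animals and 0 to 1 with a rat left out. With a replicate block on shared animal numbers, which were not taken as pairs in the main fit, 0 probes were called in each comparison. Values for testosterone minus vehicle then turned to 0.089 and -0.36 for Gja1 probes 15617 and 11533, 0.41 for S100g and 0.16 for Sfrp4, and that of Tgfa in estradiol benzoate minus testosterone to -0.064.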
